A study of Danio rerio with 16 samples.

Results

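Poly(A) sites with an imprecise cleavage position were examined in the zebrafish, Danio rerio, at 3 stages. The series looked for long intergenic noncoding RNA genes with several assays. The 3 of its 16 samples used here were made by 3P-Seq, an assay that reads tailed transcripts at their 3′ ends, where the poly(A) tail starts. All animals were wild type: embryos of 24 hours post fertilization (hpf) and of 72 hpf, and adults of mixed gender, each taken whole and each giving 1 library. No use was made of the 13 remaining samples, which were not analysed here. Whole animals mix all cell types, so fewer cells of a type and less RNA per cell cannot be told apart, and neither can 1 end used in some cells and another end in other cells be told from several ends used in the same cells.

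The sites were chosen by the measured spread of their 3′ ends. The 3′ ends of all 3 libraries, at 370449 positions, were pooled and grouped on each strand. Positions were taken in falling order of tags, and each took in all unused positions within 10 nt. This gave 90940 clusters with at least 4 pooled tags. Outside the mitochondrial genome, 3661 of them held at least 100 tags in each library. A site was taken as imprecise when its leading position, the single position with the most tags, held under 50% of the pooled tags. That left 385 imprecise sites, 10.5% of the 3661, beside 3276 other sites. Of the mitochondrial clusters that passed the tag minimum, all 32 were left out, and 9 of them were under 50%.

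As background, the end of most messenger RNAs is made by cutting the transcript and adding a tail of adenosines. The cleavage and polyadenylation specificity factor (CPSF) binds a hexamer, usually AAUAAA, upstream of the cut, and the cleavage stimulation factor (CstF) binds a GU-rich or U-rich element downstream of it. The endonuclease CPSF73 cuts between them and poly(A) polymerase adds the tail. The cut need not fall at a single nucleotide: neighbouring nucleotides of the same site can each be used, which is called microheterogeneity. Transcripts from such a site differ by a few nucleotides at the very end of the 3′ untranslated region. This is distinct from alternative polyadenylation, in which sites with separate signals are used.

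Depth was 7423152 tags at 24 hpf, 9813481 at 72 hpf and 7470435 for the adult library. The imprecise sites took 408724, 436135 and 343162 of these tags, which is 5.51%, 4.44% and 4.59%. The other sites took 60.8% and 61.4% in the embryo libraries and 41.7% in the adult library. An imprecise site held between 101 and 83734 tags at 24 hpf (median 330), between 101 and 71012 at 72 hpf (median 418) and between 100 and 41844 in adults (median 283). At the tag minimum a share carries a wide counting interval, and exact binomial 95% intervals are given below where named positions are compared between libraries at few tags or in detail. These intervals cover only the counting error of tags and treat each tag as independent. Tags copied by PCR are not independent molecules, so the intervals can be too narrow, also at sites with many tags. With 1 library per stage there was no replicate check. All differences below are between these libraries, not between stages, and no test was made.

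Cleavage precision formed a continuum with no gap at the 50% limit. Of the 3661 sites, 5 had a leading share from 20% to 30%, 107 from 30% to 40% and 273 from 40% to 50%. The next steps of 10 percentage points held 430, 481, 502, 592 and 1271 sites, so the counts went up toward 100%. The leading share of the imprecise sites ran from 25.7% to 49.96%, with a median of 43.6%, and that of the other sites from 50% to 100%, with a median of 84.1%. The rule set this difference. The sites nearest the limit on each side had almost the same pooled leading share, which is how they were picked. Just inside it lay 22017139 on the minus strand of chromosome 1 (49.96% of 2228 tags), 23842907 on the plus strand of chromosome 20 (49.93% of 1420 tags) and 41430774 on the plus strand of chromosome 11 (49.93% of 681 tags). Just outside it lay 3 sites at exactly 50%, namely 56461097 on the plus strand of chromosome 1, 36720038 on the minus strand of chromosome 14 and 14567736 on the plus strand of chromosome 7. All positions are 1-based danRer7 (Zv9) coordinates. The files give no gene names, so sites are named by their leading position.

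**Figure D1:**
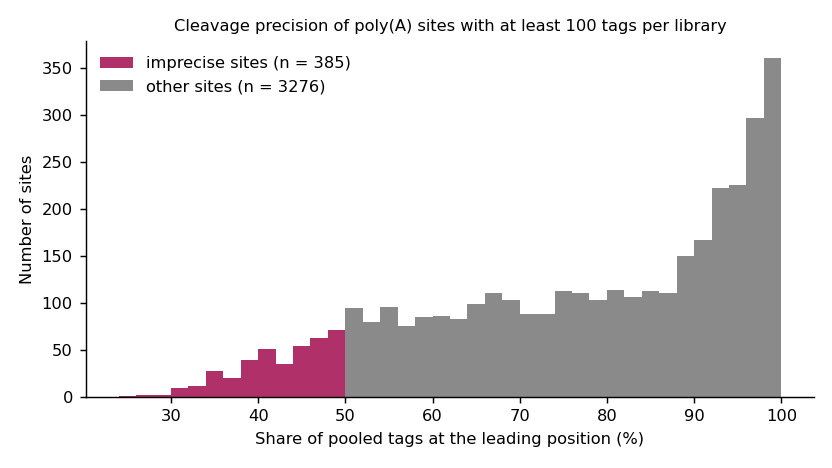
Number of poly(A) sites (vertical axis) by the share of pooled tags at the leading position, in percent (horizontal axis), for the 385 imprecise sites and the 3276 other sites with at least 100 tags in each library. Counts go up toward 100% without a gap at the limit of 50%.

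The tags of an imprecise site fell mostly on a few positions rather than spreading evenly. The leading position and the position next in tags together held a median of 74.5% of the pooled tags, against 96.9% in the other sites. The next position alone held a median of 32.1%, against 10.2%. Positions with at least 10% of a site's pooled tags were counted as used: 98 imprecise sites had 2 of them, 227 (59.0%) had 3, 55 had 4, 4 had 5 and 1 had 6. Among the other sites 1622 (49.5%) had 1 used position, 1394 had 2, 249 had 3 and 11 had 4. Positions with at least 5% of the tags spanned a median of 8 nt in an imprecise site, with a middle range of 6 to 10 nt and a maximum of 19 nt, against a median of 4 nt in the other sites. The rule bears on all of these comparisons, since an imprecise site must place more tags outside its leading position.

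Between the used positions lay positions that mostly held few tags or none. The 385 imprecise sites had 1583 unused positions between their outermost used ones, and 79.7% of these held under 1% of the site's tags. No tag in any library fell on 52.4% of them. In the other sites with at least 2 used positions, 86.2% of such positions held under 1% and 55.8% held no tag. Neighbouring used positions of an imprecise site were 1 nt apart in 24.7% of cases (16.6% in the other sites), 2 nt apart in 22.6% and 3 nt apart in 16.7%, with a median step of 3 nt. The rule bears on these steps, since more used positions within the same window can lie closer together. Positions with few tags between used ones were thus found in both groups, with the larger share in the other sites. Whether these nucleotides were seldom cut was not tested, since no sequence was read.

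An effective number of positions put all this in a single value: 1 divided by the probability that 2 tags of a site share their position, which does not depend on depth. Pooled, it had a median of 3.08 in the imprecise sites and 1.38 in the other sites. The rule largely sets this difference, since a leading share under 50% keeps the pooled value above 2. The lowest value of an imprecise site was 2.04, and the highest of the other sites was 3.16. The rule bears on the values by library too, since these libraries make up the pool. By library the medians of the imprecise sites were 2.93 at 24 hpf, 3.00 at 72 hpf and 2.99 in adults, beside 1.36, 1.36 and 1.40 in the other sites. Counted in distinct intervals instead of tags, the medians were 5.16, 5.28 and 6.63 in the imprecise sites and 3.33, 3.55 and 4.75 in the other sites, with the adult library the broadest in both groups. The library with the largest effective number was the 24 hpf library for 118 imprecise sites, the 72 hpf library for 124 and the adult library for 143. Among the other sites it was the adult library for 1409 (43.0%), against 143 of 385 (37.1%) here.

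The site with the most tags in the set ended on 3 nucleotides at regular steps. It lay at 34340610 on the minus strand of chromosome 1 and had 83734 tags at 24 hpf, 71012 at 72 hpf and 41303 in adults. Of the 24 hpf tags 46.6% fell on the leading position, of the 72 hpf tags 42.4% and of the adult tags 36.2%. The position 4 nt upstream held 31.0%, 35.2% and 34.1%, and the position 4 nt downstream 18.7%, 18.7% and 25.8%. In the adult library the share was lower at the leading position and higher at the downstream one than in the embryo libraries. The exact interval at 4 nt downstream was 25.3% to 26.2% in adults, against 18.5% to 19.0% at 24 hpf. The intervals of the embryo libraries overlapped there.

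A run of adjacent nucleotides was used at the site with the third most tags, 33906349 on the minus strand of chromosome 13. There the leading position held 35.2% of 21750 tags at 24 hpf, 37.8% of 10737 at 72 hpf and 41.2% of 11304 in adults. The nucleotide just upstream held 34.0%, 31.9% and 28.5%, and the one just downstream 19.5%, 20.6% and 19.5%. Both patterns, spaced and adjacent, were therefore found among the most abundant sites, and each kept its set of positions in all 3 libraries.

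Wider spacings were seen at 2 more of the 5 sites with the most tags. At 19254370 on the minus strand of chromosome 16, with 9145, 17540 and 41844 tags, the leading position held 34.4%, 43.9% and 42.4% in the order 24 hpf, 72 hpf and adult. The position 6 nt upstream held 37.3%, 33.1% and 37.3%, and the one 8 nt upstream 26.2%, 20.2% and 18.7%. At 17576425 on the minus strand of chromosome 24, with 3811, 2431 and 27058 tags, the leading position held 49.5%, 34.6% and 37.7%, and the pair 7 and 8 nt downstream held 15.4% and 33.5%, 20.2% and 43.9%, and 23.0% and 38.5%. At both sites the order of the leading positions at 24 hpf was not that of the 72 hpf library. At the chromosome 16 site the upstream position led at 24 hpf. At the chromosome 24 site the downstream position led at 72 hpf and, by a small margin, in the adult.

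**Figure D2:**
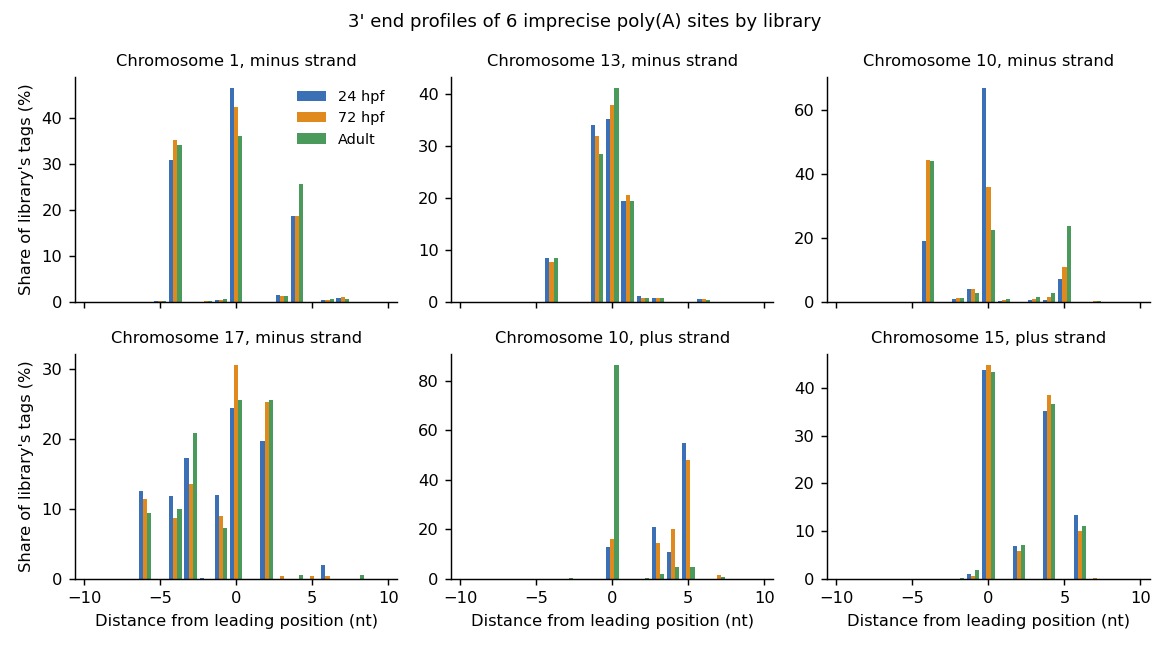
Share of each library's tags in percent (vertical axes, each with its own scale) by distance from the pooled leading position in nt (horizontal axes, negative is upstream) at 6 imprecise sites, picked for display after their values were seen; bars are the 24 hpf, 72 hpf and adult libraries. The chromosome 1, 13 and 15 sites keep their order of positions, while the minus-strand site of chromosome 10 and the plus-strand site of chromosome 10 change their leading position between libraries.

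The 5 sites with the lowest leading share held under 30% of their pooled tags at any position, which is how they were picked. In single libraries the leading share of these sites reached 39.9%. The site at 28143506 on the minus strand of chromosome 17, with 3168 pooled tags, had 6 used positions, from 6 nt upstream to 2 nt downstream of the leading one. The shares of the leading position were 24.5%, 30.7% and 25.7% in the order 24 hpf, 72 hpf and adult, and those of the position 2 nt downstream 19.8%, 25.3% and 25.7%. At 43002994 on the minus strand of chromosome 14, with 5427 tags, 3 positions were about equal at 24 hpf: in the order 24 hpf, 72 hpf and adult, the leading position held 25.7%, 31.2% and 32.3%, the one 3 nt downstream 25.0%, 32.1% and 31.0%, and the one 5 nt upstream 24.3%, 19.2% and 15.9%. The upstream end of that site had a smaller share in the adult library, whose exact interval of 14.0% to 18.0% lay below the 22.6% to 26.0% at 24 hpf.

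The other 3 of these 5 were less abundant, with 600 tags at 25638568 on the plus strand of chromosome 16 (leading share 25.7%), 1200 at 23825378 on the minus strand of chromosome 11 (27.8%) and 1029 at 45046956 on the plus strand of chromosome 1 (28.2%). Of these, at the chromosome 16 site the leading position held 17.4% (13.3% to 22.2%), 39.9% (32.7% to 47.4%) and 24.8% (17.1% to 33.8%) in the order 24 hpf, 72 hpf and adult, and the position 4 nt downstream 36.2%, 7.65% and 25.7%. The 24 hpf and 72 hpf libraries of that site thus led at different positions, each with a higher share than in the pool.

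The most abundant sites that were not imprecise serve as a contrast. The most abundant of the 3661 sites, 758922 on the minus strand of chromosome 17, had 87.8%, 85.5% and 83.5% of its tags at the leading position, in 64060, 493136 and 91279 tags. At 61802779 on the minus strand of chromosome 3 the leading position held 99.8%, 99.8% and 99.7%. At 31296974 on the plus strand of chromosome 7 it held 64.6%, 65.7% and 67.9%, with 25.6%, 25.7% and 19.8% of the tags 3 nt upstream. High abundance thus went with different precision at different sites.

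Imprecision was seen again in a library to which the 50% limit had not been applied. For this, sites under 50% were chosen from 2 libraries pooled and their leading share was read in the library left out. That library still took part in the grouping of positions and in the minimum of 100 tags. With the 24 hpf library left out, 245 of 389 such sites (63.0%, exact 95% interval 58.0% to 67.8%) were also under 50% there, against 108 of the 3272 remaining sites (3.30%, 2.72% to 3.97%). With the 72 hpf library left out it was 261 of 393 (66.4%) against 107 of 3268 (3.27%), and with the adult library left out 239 of 383 (62.4%) against 142 of 3278 (4.33%). The median leading share in the library left out was 46.7%, 46.4% and 46.4% in the chosen sites, and 85.0%, 85.0% and 83.7% in the remaining ones. The intervals do not overlap in any of the 3 cases. With distinct intervals in place of tags the shares were 72.1%, 79.1% and 95.02%, against 6.67%, 14.8% and 52.3%, so the groups were closest in the adult library. Sites are not replicates.

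**Figure D3:**
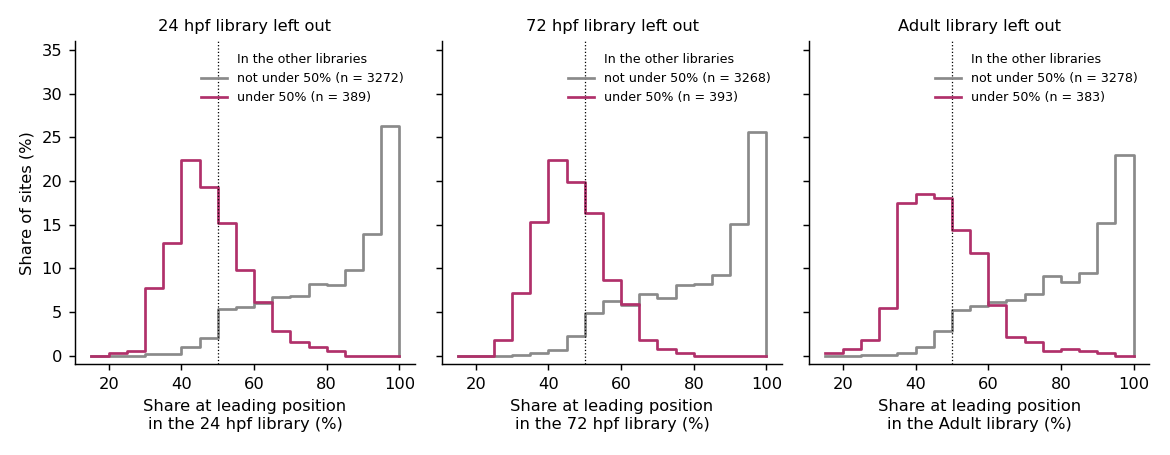
Distribution of sites, in percent of their group (vertical axis), by the share at the leading position in the library that was left out, in percent (horizontal axis); the lines are the sites under 50% and not under 50% in the other libraries, and the dotted line is 50%. In all 3 libraries the sites chosen from the other libraries centre near 46% to 47% and the remaining sites near 84% to 85%.

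Read library by library, 177 of the 385 imprecise sites (46.0%) were under 50% in all 3 libraries, 124 in 2, 63 in 1 and 21 in none. In the other sites 3051 were under 50% in no library, 190 in 1 and 35 in 2. Each library on its own had 272 imprecise sites under 50% at 24 hpf, 299 at 72 hpf and 271 in adults. The 21 sites under 50% in no library had leading shares from 50.4% to 78.5% in single libraries, and in all 21 the leading position was not the same in the 3 libraries. At these sites each library had its leading position at 50% or more, and the pool of the libraries did not.

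The second position was found on either side of the leading one. It lay upstream in 197 imprecise sites (51.2%) and downstream in 188 (48.8%), against 1473 (45.0%) and 1797 (55.0%) of the 3270 other sites that had a second position. Its median distance was 4 nt, against 3.5 nt. In 183 imprecise sites (47.5%) it lay within 3 nt, against 50% of the other sites, and at 5 nt or more in 37.4% against 37.3%. By distance the imprecise sites had more second positions 4 nt upstream (36 sites) than 4 nt downstream (22), while in the other sites there were 143 and 271. The nucleotide directly downstream was second in 28 imprecise sites and in 114 of the other sites, and the one directly upstream in 31 and 346. The rule may bear on the side of the second position, since the first and second can swap places more easily where their tags are close.

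**Figure D4:**
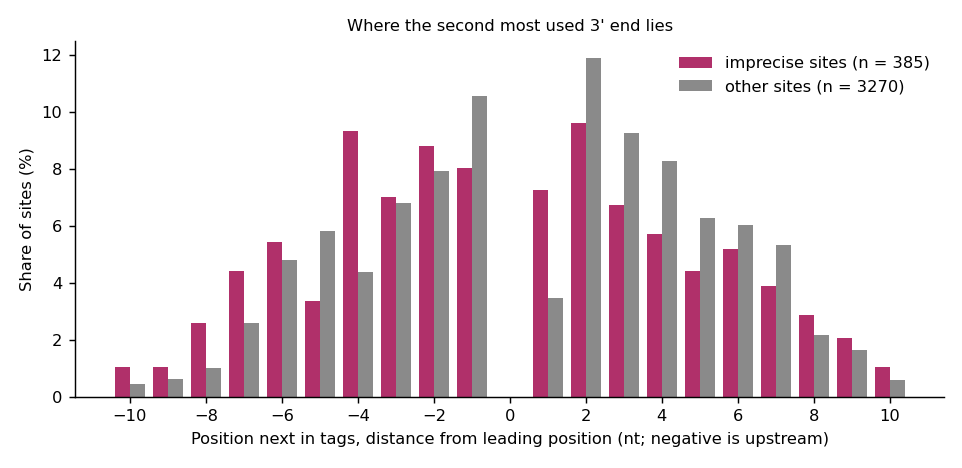
Share of sites in percent (vertical axis) by the distance in nt from the leading position to the position next in tags (horizontal axis, negative is upstream), for 385 imprecise sites and the 3270 other sites with a second position. The imprecise sites are spread over both sides (197 upstream, 188 downstream), and the other sites more often have it downstream (1797 of 3270).

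What lay between the first and second position differed from the other sites. The pair was adjacent in 59 imprecise sites (15.3%, against 14.1%). All positions between them held under 1% of the tags in 128 (33.2%, against 60.5%), and at least 1 of them held more in 198 (51.4%, against 25.4%). A clean gap was therefore the more common form in the other sites and an occupied one in the imprecise sites. Since an imprecise site must place more tags outside its leading position, the rule bears on this count.

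Over all tags outside the leading position, 48.8% lay downstream in the imprecise sites and 53.0% in the other sites. These shares weigh each site by its tags, so a few sites with many tags weigh most. In the imprecise sites, 377511 of the 674918 such tags came from the 34 sites with at least 1000 tags in each library. In those 34 sites 47.3% lay downstream. How far the difference rests on single sites was not tested. By site, 47.8% of the imprecise sites (exact 95% interval 42.7% to 52.9%) had more tags downstream than upstream, against 56.6% of the other sites (54.9% to 58.3%). The 2 intervals do not overlap, but sites are not replicates. The rule may bear on this comparison. At a site with rival positions a small difference in tags decides which of them leads, and so on which side the rest lies. The share within the imprecise sites was 48.0% in the 24 hpf library, 49.2% in the 72 hpf library and 49.4% in the adult library. Counting each distinct interval once instead of its tags put the imprecise sites at 51.9% downstream and the other sites at 57.4%, so the imprecise sites then lay on the other side of 50%.

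The widest second positions reached the edge of the 10 nt window. At 40428500 on the plus strand of chromosome 10 the leading position held 44.6%, 43.1% and 54.0% of the tags and the position 10 nt downstream 30.8%, 37.9% and 23.6%, with 23.4%, 16.1% and 21.1% midway at 5 nt. At 58767872 on the plus strand of chromosome 5 the values 10 nt downstream were 31.1%, 36.4% and 22.6%. At 28488449 on the minus strand of chromosome 13 they were 16.4%, 29.2% and 24.7%, beside a leading share of 41.9%, 40.9% and 40.1%. At the first 2 of these sites the downstream position was largest at 72 hpf and smallest in adults, but some intervals overlapped. At 40428500 the exact interval in adults (17.3% to 30.9%) overlapped that at 24 hpf (29.0% to 32.6%). At 58767872 the intervals at 24 hpf (27.5% to 34.9%) and 72 hpf (33.5% to 39.5%) overlapped.

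Used positions were picked by their share of the pool of these 3 libraries. Most of them held at least 5% of the tags in every library, in the imprecise sites and in the others alike. A position used mainly in a single library can fall short in the pool, so positions of that kind can be missing from this count. How far positions in general were shared between libraries was not tested. Of the 1123 used positions in the imprecise sites, 1091 (97.2%) held at least 5% of the tags in every library, against 3487 of 3579 (97.4%) in the other sites with at least 2 used positions. The leading position was the same in all 3 libraries in 153 imprecise sites (39.7%), against 3104 other sites (94.7%). Among the 232 sites where it differed, 202 (87.1%) led in every library at 1 of the 2 pooled leading positions. The distance between the leading positions was 1 nt in 32 of them, 2 to 4 nt in 100 and at least 5 nt in 100, with a median of 4 nt. The adult library stood alone in 83, the 24 hpf library in 81 and the 72 hpf library in 56, and all 3 differed in 12. The rule bears on these counts, since a site chosen for having rival positions can change its leader with a smaller difference in tags.

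Among the 5 sites with the most tags, the largest such change was at 46005420 on the minus strand of chromosome 10, the site with the fourth most tags. Its leading position held 66.9% of 18046 tags at 24 hpf, 36.1% of 11880 at 72 hpf and 22.5% of 7600 in adults. The position 4 nt upstream held 19.0%, 44.3% and 43.9%, and the position 5 nt downstream 7.19%, 10.9% and 23.7%. The share at the leading position thus fell from library to library, with exact intervals of 66.2% to 67.6%, 35.2% to 36.9% and 21.5% to 23.4%. The upstream position was larger in both later libraries, while the downstream one was largest in the adult.

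A profile distance was computed for each pair of libraries: 0 when a site's positions have the same shares in both, and 1 when no position is shared. Its median in the imprecise sites was 0.148 between 24 hpf and 72 hpf, 0.141 between 72 hpf and adult, and 0.166 between 24 hpf and adult. In the other sites it was 0.0548, 0.0554 and 0.0659. The pair of the 24 hpf and adult libraries had the largest median in both groups. Among sites with at least 1000 tags in each library, a subset taken after the data were seen, the medians were 0.0825, 0.0880 and 0.101 in 34 imprecise sites and 0.0262, 0.0303 and 0.0409 in 342 other sites. In that subset the leading position was the same in all 3 libraries in 58.8% and 97.7%. Distances were therefore smaller at higher depth in both groups. The rule bears on this comparison too, since tags spread over more positions have more ways to differ. With distinct intervals in place of tags the order turned, with medians of 0.163, 0.189 and 0.202 in the imprecise sites and 0.182, 0.226 and 0.241 in the other sites.

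**Figure D5:**
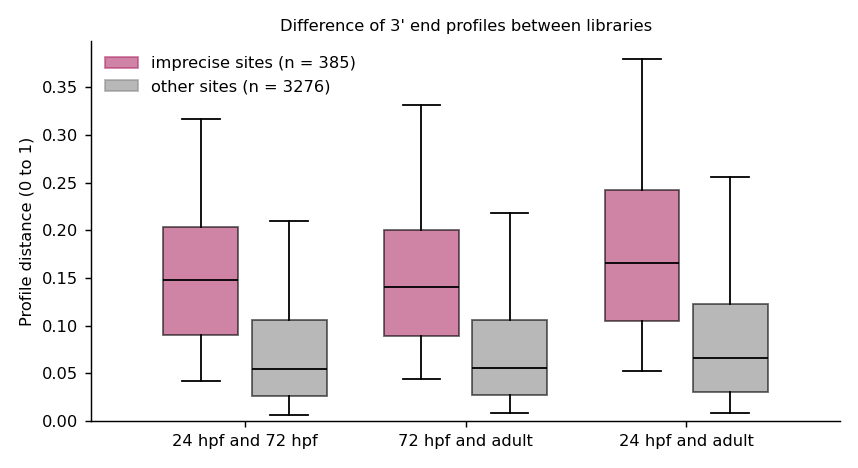
Profile distance between libraries (vertical axis, 0 is the same shares and 1 no shared position) for each pair of libraries (horizontal axis), in 385 imprecise and 3276 other sites; boxes are the middle 50% with the median, and whiskers run from the 5th to the 95th percentile. The imprecise sites have the higher medians in each pair (0.148, 0.141 and 0.166 against 0.0548, 0.0554 and 0.0659).

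At the 3 sites with the largest distance, 1 library placed most of its tags on a position that held a smaller share in the others. At 42567596 on the plus strand of chromosome 10 the leading position held 13.0% (exact interval 7.92% to 19.8%) of 138 tags at 24 hpf, 16.1% (12.4% to 20.3%) of 355 at 72 hpf and 86.6% (82.0% to 90.3%) of 283 in adults, while the position 5 nt downstream held 55.1%, 47.9% and 4.95%. The embryo libraries were alike and the adult library stood apart, with a distance of 0.749 to 24 hpf. At 34978829 on the minus strand of chromosome 16 the leading position held 44.5%, 22.4% and 84.3%, and the position 8 nt downstream 29.9%, 43.2% and 0 of 210 adult tags, where the floor of 3 tags is a share of 1.43% and the exact interval reaches 1.74%. There too the adult library was the most precise of the 3. At 15099519 on the minus strand of chromosome 20 the leading position held 10.3% (6.90% to 14.6%) of 262 tags, 72.8% (68.3% to 77.0%) of 423 and 30.3% (22.6% to 38.9%) of 132, so the 72 hpf library stood apart.

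The 3 steadiest sites kept their shares within a few points. At 28471915 on the plus strand of chromosome 15, with 13072 tags, the leading position held 43.8%, 44.9% and 43.3%, and the position 4 nt downstream 35.1%, 38.4% and 36.5%. At 26725025 on the minus strand of chromosome 2 2 ends 4 nt apart held nearly all tags, each with close to the same number of tags: 49.75%, 52.3% and 48.4% at the leading one and 49.75%, 47.1% and 49.6% at the other. At 39359866 on the plus strand of chromosome 5 the leading position held 43.8%, 40.5% and 41.1%. The largest distance between any pair of libraries was 0.0451 or less at these 3 sites.

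The direction of the changes was measured after the data were seen, by the mean 3′ end of a site in each library. From 24 hpf to 72 hpf it lay further downstream in 228 imprecise sites and further upstream in 157. From 72 hpf to adult the counts were 233 and 152, and from 24 hpf to adult 250 and 135, or 64.9% downstream. The other sites were downstream in 57.8%, 58.7% and 64.2%, so for moves of any size the imprecise sites had about the same lean as the rest. The libraries are shared between these comparisons. Moves of at least 1 nt were 37 downstream and 26 upstream, 47 and 30, and 63 and 31 in the same order. For adult over 24 hpf this is 16.4% and 8.05% of the imprecise sites, against 5.49% and 1.80% of the other sites (180 and 59). For that pair, upstream moves were a larger part of these moves in the imprecise sites. The rule bears on how often such moves occur, since tags spread over more positions can shift the mean more easily. Among the 34 imprecise sites with at least 1000 tags per library, such moves were downstream in 11.8% and upstream in 0%, 5.88% and 8.82%, and 8.82% and 2.94%, which are too few sites to read a direction from. With distinct intervals the imprecise sites moved downstream by at least 1 nt less often than the other sites, 17.7% against 24.2% for adult over 24 hpf.

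The abundance of the imprecise sites differed between libraries about as often as that of all sites. Tags were scaled to 1000000 per library (CPM), and a call needed a ratio of 4-fold or more and an exact 95% interval that excluded 2-fold. At 72 hpf over 24 hpf, 10 imprecise sites (2.60%) were higher, against 3.39% of all 3661 sites, and 11 (2.86%) were lower, against 3.06%. At adult over 72 hpf, 20 (5.19%) were higher, against 5.14%, and 28 (7.27%) lower, against 10.3%. At adult over 24 hpf, 17 (4.42%) were higher, against 4.18%, and 26 (6.75%) lower, against 9.59%. The shares higher were close to the background, and those lower in the adult were below it by about 3 percentage points. Each site had to hold at least 100 tags in each library, which limits how large a ratio a site with few tags can have. Imprecise sites had fewer pooled tags, with a median of 1190 against 1386 in the others. What part this had in the calls was not tested. The median ratios were 0.905, 1.01 and 0.888 in the imprecise sites and 0.916, 0.862 and 0.824 in all sites. Scaling by the median ratio over all sites moved every site by the same factor within a pair. It gave 12 imprecise sites higher and 8 lower at 72 hpf over 24 hpf, against 3.91% and 2.70% of all sites. At adult over 72 hpf it gave 26 and 20, against 6.64% and 8.00%, and at adult over 24 hpf 25 and 18, against 6.09% and 7.05%. More imprecise sites were then called higher than lower in each pair, which was the reverse of the first scaling.

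The sites with the largest ratios had several ends in each library. The rule bears on this, since the library with the most tags weighs most in the pooled leading share. The largest at 72 hpf over 24 hpf was 40853078 on the plus strand of chromosome 7, with 84.2, 1730 and 702 CPM in the order 24 hpf, 72 hpf and adult, a ratio of 20.5 (19.0 to 22.3). Its leading position held 43.5%, 46.7% and 35.8%, and the position 9 nt downstream 32.3%, 21.6% and 30.4%. The largest at adult over 72 hpf was 40503414 on the plus strand of chromosome 6, with 80.2, 16.7 and 721 CPM and a ratio of 43.1 (36.9 to 50.7). There the leading position held 34.8%, 30.5% and 44.9%, and the position 7 nt upstream, which led in both embryo libraries, 38.0%, 39.0% and 19.4%. The largest at adult over 24 hpf was 13971998 on the minus strand of chromosome 4, with 31.8, 110 and 520 CPM, a ratio of 16.4 (14.3 to 18.7). Its leading position held 32.6%, 40.4% and 41.9%.

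In the other direction, 37080032 on the plus strand of chromosome 5 had 116, 15.3 and 25.8 CPM and was 7.56-fold lower (6.35 to 9.06) at 72 hpf than at 24 hpf, with 43.0%, 40.7% and 40.9% at its leading position. The site 24196270 on the minus strand of chromosome 15, with 22.6, 164 and 13.4 CPM, was 12.2-fold lower (9.98 to 15.1) in the adult than at 72 hpf. At its leading position 45.2%, 47.9% and 50% of the tags were found. The site 40428500 on the plus strand of chromosome 10, already named for its 10 nt spacing, had 356, 144 and 21.6 CPM and was 16.5-fold lower (14.1 to 19.5) in the adult than at 24 hpf. None of these 6 sites was reduced to a single end in any library. For the library with the most tags the rule largely sets this. At 24196270, for example, 1605 of the 1873 pooled tags were from the 72 hpf library.

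Neighbouring clusters were somewhat more common beside imprecise sites, and the difference lay mainly directly beyond the grouping window. Another cluster lay within 50 nt on the same strand at 206 of them (53.5%, exact 95% interval 48.4% to 58.6%) and at 43.0% of the other sites (41.3% to 44.7%). It lay 11 to 15 nt away, directly beyond the grouping window, at 123 (31.9%) against 21.6%. This difference was about as large as that over all 50 nt. A neighbour with at least 10% of the site's tags was rarer, at 43 (11.2%) against 7.26%. For both kinds of neighbour, the close ones and those with at least 10% of the tags, the window may have split a broader site. Sites are not replicates. A cluster on the opposite strand within 100 nt was found at 22 (5.71%) and at 6.11% of the other sites.

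The imprecise sites were spread over the genome, with 194 on the plus and 191 on the minus strand and members on all 25 chromosomes. Chromosome 4 had the highest share, 18 of 98 sites (18.4%, exact interval 11.3% to 27.5%), and chromosome 20 the lowest, 11 of 152 (7.24%, 3.67% to 12.6%). These intervals overlap. Chromosome 21, picked out after its values were seen, had 28 of 156 (17.9%, 12.3% to 24.9%). Its interval lay above those of chromosome 3 (17 of 225, 4.46% to 11.8%) and chromosome 5 (17 of 223, 4.50% to 11.9%), among 25 chromosomes compared. Another 6 of the 42 sites on unplaced scaffolds were imprecise. No 2 imprecise sites had totals within 1.1 times in each library and near-equal profiles. Copies with unequal totals could not be found in this way. When the 3661 sites were ranked by pooled tags and split into 5 groups of about the same size, imprecise sites made up 96 of the 733 sites with the fewest tags (13.1%) and 55 of the 731 sites with the most tags (7.52%). The groups between held 9.14% to 11.8%.

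Duplication and read length were recorded beside these values. The imprecise sites had medians of 15.8, 18.1 and 10.3 tags per distinct interval in the 24 hpf, 72 hpf and adult libraries, against 30.0, 35.7 and 18.3 in the other sites. Their leading position had a median of 6, 6 and 7 distinct intervals, against 7 in each library, and 12 was the maximum in both groups together. The mean interval length was 27.98, 27.94 and 28.34 nt in the imprecise sites and 27.85, 27.83 and 28.22 nt in the others. The rule bears on the tags per distinct interval, since tags spread over more positions can fall on more distinct intervals. Imprecise sites also had fewer pooled tags, with a median of 1190 against 1386 in the others. The part of duplication in the spread of positions was not tested.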

How the data were processed

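Values are whole-number tag counts per genomic interval in files deposited by the authors for 3 3P-Seq libraries. Tags were aligned with Bowtie to Zv9 (danRer7), per the submitters' processing notes. For trimming, filters on multiple matches and the Bowtie version, the answer is not given in the sources used here. Each line carries its whole number as the BED name, with no label for what it counts, and reading it as tags is an assumption. The display offset of 1 in the file headers was added to positions. The 3′ end is the end of a plus-strand interval or the start of a minus-strand interval.

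Positions were grouped within 10 nt and sites compared as described above (Python 3.11.15, numpy 2.4.6, pandas 2.3.3, scipy 1.17.1). A library's floor of 3 tags is 0.404 CPM (24 hpf), 0.306 CPM (72 hpf) or 0.402 CPM (adult). Intervals are exact Clopper-Pearson 95% intervals. For ratios they are conditional on the total of both libraries. The steps were tested on simulated sites that were clearly imprecise or clearly precise, lay far apart and held no PCR copies. Sites near the limit of 50% and sites with close neighbours were not simulated. The imprecise sites, named sites and comparisons were chosen with earlier results of these data known. Sites are named by rank: most tags, lowest leading share, nearest the limit of 50%, largest and smallest profile distance, widest spacing, largest ratios, and most tags without being imprecise. Alternatives were other windows, limits, tag minimums, weights and scalings, distinct intervals and leaving out libraries. No sequence or gene annotation was used here.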

Additional observations from a re-analysis of the deposited data

How the results depend on the processing

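The count of 385 imprecise sites depends on the limits. It was 196 with a 5 nt window (5.40% of 3627 sites). With at least 50 tags per library it was 693 (11.5% of 6013) and with at least 200 it was 195 (9.58% of 2036). The tag minimum thus changed the count more than the share, which was 10.5% in the main setting. Limits of 40% and 60% gave 112 (3.06% of 3661) and 815 (22.3%). Windows of 15 and 24 nt, single linkage, equal library weights and counting near-equal copies once kept it within 1.5 times. Leaving out a library gave 383 to 393, but not all were the same sites. Of the 385, 335 stayed imprecise without the 24 hpf library, 328 without the 72 hpf library and 333 without the adult library. With equal library weights 348 stayed. With distinct intervals it was 2709, or 74.0% of the 3661 sites. The pooled leading position of a site held at most 12 distinct intervals in a library. What part this limit or duplication had in the higher count was not tested.

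Distinct intervals gave 5.16, 5.28 and 6.63 effective positions (24 hpf, 72 hpf, adult) and 72.1%, 79.1% and 95.02% under 50% in the library left out (6.67%, 14.8% and 52.3% of the remaining sites). Of the distinct intervals outside the leading position, 51.9% lay downstream. The other sites had 3.33, 3.55 and 4.75 effective positions. The profile distances became 0.163, 0.189 and 0.202 (72 hpf over 24 hpf, adult over 72 hpf, adult over 24 hpf, the order used below).
A 24 nt window gave 3.04, 3.10 and 3.10 effective positions. Sites with at least 1000 tags per library, chosen after seeing the data, gave 2.86, 2.84 and 2.83, with 75.9% under 50% in the adult left out, 58.8% with the same leading position, profile distances of 0.0825, 0.0880 and 0.101, and 47.3% of tags downstream. Single libraries gave 48.0%, 49.2% and 49.4% downstream. Leading positions within 1 nt were shared in 48.1%.

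Moves of the mean position by at least 1 nt, also measured after seeing the data, were downstream in 14.0% (72 hpf over 24 hpf) and upstream in 11.3%, 12.1% and 14.9% with a 24 nt window. At 1000 tags or more they were upstream in 0% and 2.94% (72 hpf and adult over 24 hpf), and downstream in 5.88% and 8.82% (adult over 72 hpf and over 24 hpf). With distinct intervals they were upstream in 4.68% and 4.16% of sites in those adult comparisons. The cause was not tested.

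An 8-fold limit left 2 higher and 0 lower, 5 and 3, and 5 and 4 imprecise sites (of all sites 0.956% and 0.574%, 1.42% and 2.65%, and 1.07% and 2.73%). A 2-fold limit with an interval excluding 1 gave 44 and 66, 81 and 93, and 56 and 90 (12.8% and 17.2%, 17.6% and 27.8%, and 13.8% and 28.6%). Neighbours with at least 10% of the tags were found at 11.2% and neighbours within 24 nt at 45.5%.

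No paired analysis was possible because each stage had 1 library and no test was made. Motifs around the sites were not analysed here. Depth limits shares at sites near 100 tags most.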
